A study of Mus musculus with 40 samples.

Results

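The genes described here encode the machinery that moves newly made proteins into the endoplasmic reticulum (ER) and on to the Golgi, together with the coat that brings escaped ER proteins back. The set holds 36 genes: 10 of the translocon, 5 of the signal peptidase, 10 of the COPII coat and its GTPase, 6 of the COPI coat and its ARF GTPase, the 3 KDEL receptors, and the paired cargo receptor Lman1 and Mcfd2. They were chosen by symbol, with earlier results of these data known, and matched through the Ensembl identifier of each row. They are 36 of the 53465 genes in the count table. All 36 passed the filter on low counts and are among the 16921 genes tested.

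Secretory and membrane proteins enter the ER through the SEC61 channel, helped by SEC62, SEC63, TRAM and the translocon-associated protein (TRAP) complex, and the signal peptidase then removes their signal peptide. Folded cargo leaves in vesicles coated by COPII, whose assembly starts with the GTPase SAR1, while COPI vesicles carry ER residents back, with KDEL receptors holding soluble chaperones that end in a KDEL-type sequence. Many of these genes are known targets of the unfolded protein response, the transcriptional programme that adjusts ER capacity to its load, and urothelium is an epithelium that makes large amounts of membrane protein for its apical surface.

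The study compared mouse bladder urothelial organoids that were wild type (WT) with organoids whose label names a knockout of both Kmt2c and Kmt2d (dKO), the genes of a pair of histone H3 lysine 4 methyltransferases that act at enhancers. The 4 groups were WT with the solvent DMSO, WT with MI-503, labelled dKO with DMSO and labelled dKO with MI-503, with 2 libraries in each. MI-503, an inhibitor of the interaction of menin with the methyltransferase KMT2A, was given at 1 µM, and treatment lasted 4 days in all groups. Every group was grown in advanced DMEM/F12 with B27, Noggin, R-spondin, EGF, the ROCK inhibitor Y-27632, the TGF-β receptor inhibitor A83-01, N-acetyl-L-cysteine, glutamine and antibiotics. How the knockout was made, how many mice or lines each group came from, and whether replicates were separate cultures is not stated in the labels, and p-values therefore measure only the spread between these libraries.

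Libraries held 58113705 to 68571176 counts, and levels are given as CPM, a library's counts set to a common total, with the TMM correction of edgeR for composition. Kmt2c had 110.2 and 111 CPM in WT DMSO, 60.3 and 61.6 CPM in WT MI-503, 55.2 and 52.3 CPM in labelled dKO DMSO and 26.6 and 29.8 CPM in labelled dKO MI-503, so it was lower in the libraries labelled dKO but present. Kmt2d had 95.4 and 86.5 CPM in WT DMSO, 75.8 and 65.7 CPM in WT MI-503, 111 and 133 CPM in labelled dKO DMSO and 104 and 86.5 CPM in labelled dKO MI-503, and was not lower in the libraries labelled dKO, so the label is used as given and gene-level counts do not show loss of Kmt2d. Counts over a whole gene do not show whether single exons were lost. Of 18 urothelial markers 17 passed the filter, and their sum was 12540 to 13730 CPM in WT DMSO, 18390 to 19370 CPM in WT MI-503, 20640 to 23040 CPM in labelled dKO DMSO and 20720 to 23280 CPM in labelled dKO MI-503. The basal keratin Krt5 led that list, while Krt19 had means of 3480, 2866, 2511 and 2222 CPM in the same order of groups. With MI-503 in WT, 6 of the 17 rose and 8 fell (edgeR adjusted p under 0.05), beside 35.2% and 33.7% of all genes. In DMSO, 9 were higher and 5 lower in labelled dKO than in WT, beside 29.6% and 35.8% of all genes. The sum thus does not stand for a common direction of these markers. Among uroplakins, the membrane proteins of superficial cells, Upk1b was at 97.5 to 144 CPM over all libraries. Upk1a, Upk2, Upk3a and Upk3b were at most 1.90, 0.149, 2.58 and 1.64 CPM. Smooth muscle markers, mostly Acta2, summed to 3.16 and 4.17 CPM in WT DMSO, 42.8 and 40.3 CPM in WT MI-503, 1.43 and 1.25 CPM in labelled dKO DMSO, and 7.63 and 7.60 CPM in labelled dKO MI-503. The leukocyte list summed to 18.6 and 16.5 CPM, 161 and 166 CPM, 13.2 and 13.1 CPM, and 69.8 and 61.2 CPM in the same order, almost all of it Cd68. Fibroblast markers summed to at most 8.49 CPM, with Pdgfra at up to 8.27 CPM and Dcn, Lum and Col1a2 at 0, endothelial markers to at most 0.468 CPM and plasma cell markers to at most 0.227 CPM in any library. Acta2 and Cd68 were highest in WT MI-503, and their part in the results was not tested. Of the other leukocyte genes, Ptprc, Adgre1, Cd3e and Itgam were at most 0.0293, 0, 0.0331 and 0.205 CPM in any library. The smooth muscle genes Des, Myh11, Tagln and Cnn1 were at most 0.541, 0.416, 0.149 and 0.0324 CPM. With MI-503 in WT, 2 of the 3 tested smooth muscle genes rose (Acta2 and Des) and 1 did not pass, beside 35.2% of all genes rising. In bulk libraries, fewer cells of a type and less RNA per cell cannot be told apart.

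Promoters of the set were searched for 3 motifs of unfolded protein response factors, because many of these genes are known targets of that response. Of the 36 genes, 29 had an entry in the RefSeq promoter table (build GRCm38.p6, 250 bases before to 50 after each start). No entry of the 29 genes held ERSE (CCAAT, then 9 bases, then CCACG) or ERSE-II (ATTGG, then 1 base, then CCACG), on either strand, and 0.119% and 0.0365% of the 32851 promoters in the table held them. The UPRE core TGACGTGG, searched on both strands, was found for 5 of the 29 genes, beside 193 of 27025 genes in the table (0.714%). These 5 were Sec23a and Sec24d of COPII, Copb1 and Copb2 of COPI, and Kdelr3. For 3 of them the match lay wholly before the start, for Copb2 it ended at the start base, and for Sec23a it lay after it. Starts are those of the promoter entries. The start used for Sec24d lies inside that gene's RefSeq span (chr3:123264801-123365641), so its match lies within the span. A match describes letters in a window and is not a binding site. The windows below run from 70 bases before the start through the first 30 transcribed bases, 5′ to 3′ on the strand of the gene, with the motif, or its reverse complement CCACGTCA, in capitals. Kdelr1 and Ssr4, which rose with MI-503 in WT while most of the set fell, were added after their values were seen and hold no match. They do not stand for the genes without a match. Of the 24 such genes with an entry, 18 fell with MI-503 in WT, beside 33.7% of all genes, and 3 rose.
Sec23a (chr12:59011988-59012087, minus strand): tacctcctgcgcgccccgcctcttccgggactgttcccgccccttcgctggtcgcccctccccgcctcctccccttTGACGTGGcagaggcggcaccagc
Sec24d (chr3:123267426-123267525, plus strand): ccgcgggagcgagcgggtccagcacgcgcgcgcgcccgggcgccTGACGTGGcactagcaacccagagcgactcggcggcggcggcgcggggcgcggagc
Copb1 (chr7:114254651-114254750, minus strand): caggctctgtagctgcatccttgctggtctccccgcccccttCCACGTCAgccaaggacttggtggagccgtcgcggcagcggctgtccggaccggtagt
Copb2 (chr9:98563661-98563760, plus strand): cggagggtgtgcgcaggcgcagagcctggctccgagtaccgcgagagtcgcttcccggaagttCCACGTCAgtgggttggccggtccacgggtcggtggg
Kdelr3 (chr15:79516338-79516437, plus strand): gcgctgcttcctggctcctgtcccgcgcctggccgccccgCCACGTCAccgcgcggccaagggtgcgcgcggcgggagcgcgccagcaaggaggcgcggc
Kdelr1 (chr7:45872770-45872869, plus strand): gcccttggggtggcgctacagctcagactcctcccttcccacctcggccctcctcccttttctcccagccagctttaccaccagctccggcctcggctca
Ssr4 (chrX:73786953-73787052, plus strand): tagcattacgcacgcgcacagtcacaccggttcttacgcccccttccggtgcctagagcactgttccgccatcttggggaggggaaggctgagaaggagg

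Most of the set was lower with MI-503 than with DMSO in WT. Of the 36 genes, 29 fell and 3 rose (edgeR quasi-likelihood test, Benjamini-Hochberg adjusted p under 0.05 over all genes tested), and 4 did not pass. Over all 16921 genes, 33.7% fell and 35.2% rose. The median log2 fold change of the set was -0.56, beside 0.03 over all genes, and 12 of the 36 fell by at least 2-fold while none rose by that much. Scaling by library size alone gave 25 lower and 6 higher. The summed level of the 36 genes was 7255 and 7429 CPM in WT DMSO and 4432 and 4502 CPM in WT MI-503. In labelled dKO it was 4545 and 4356 CPM with DMSO and 4228 and 4275 CPM with MI-503. Unscaled, the set had 445683 and 449327 counts in WT DMSO and 263710 to 310768 in the other libraries. WT DMSO stood above the other 3 groups, which lay close to each other.

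**Figure D1:**
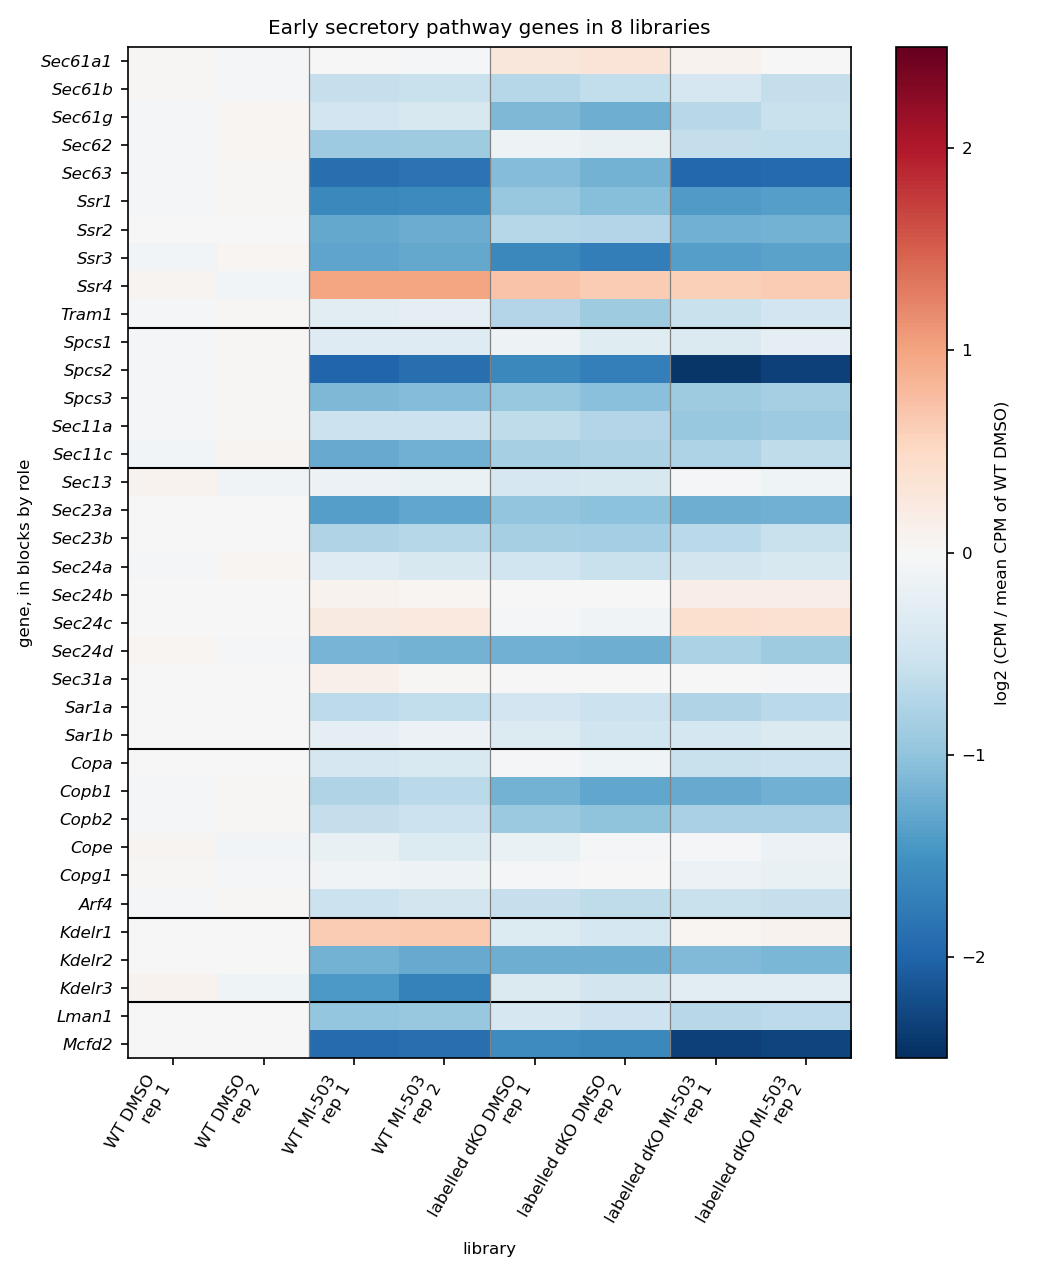
Level of each of the 36 genes in each of the 8 libraries, as log2 of CPM relative to the mean of the 2 WT DMSO libraries (blue, lower; red, higher), with genes in rows by role. Most rows are blue in the 6 libraries outside WT DMSO, and Ssr4 is red in all of them.

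In the translocon, 8 of 10 genes fell with MI-503 in WT, Ssr4 rose and Sec61a1 did not pass. Sec63 (chr10:42761496-42832514, RefSeq span on GRCm38.p6, as for the other genes), which encodes the membrane co-chaperone that recruits the lumenal chaperone BiP to the channel, had 385 and 398 CPM in WT DMSO, 107 and 109 CPM in WT MI-503, 185 and 173 CPM in labelled dKO DMSO and 99.8 and 101 CPM in labelled dKO MI-503. Its levels were highest in both WT DMSO libraries, intermediate in labelled dKO DMSO and lowest, without overlap, in both MI-503 groups. On the log2 scale it changed with MI-503 by -1.86 (SE 0.0481, edgeR adjusted p = 9.97e-13) in WT and -0.83 (SE 0.0473) in labelled dKO. Sec62, the partner of SEC63 in post-translational import, changed by -0.90 (SE 0.0485) in WT.

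The TRAP complex gave opposite directions within 1 complex. Ssr1 (chr13:37971401-37994208), which encodes its alpha subunit, had 367 and 385 CPM in WT DMSO, 124 and 124 CPM in WT MI-503, 195 and 179.9 CPM in labelled dKO DMSO and 141 and 145 CPM in labelled dKO MI-503. Ssr3 (chr3:65379657-65392553), the gamma subunit, had 923 and 1003 CPM in WT DMSO, 385 and 399 CPM in WT MI-503, 314 and 291 CPM in labelled dKO DMSO and 371 and 382 CPM in labelled dKO MI-503. Ssr4 (chrX:73787023-73790828), the delta subunit, had 72.2 and 65.6 CPM in WT DMSO, 136 and 136 CPM in WT MI-503, 112 and 107 CPM in labelled dKO DMSO and 104 and 106 CPM in labelled dKO MI-503. Ssr1 and Ssr3 were highest in WT DMSO and Ssr4 was lowest there, with no library of WT DMSO overlapping another group. With MI-503 in WT the log2 changes were -1.60 (SE 0.051, edgeR adjusted p = 6.45e-12) for Ssr1, -1.26 (SE 0.0445) for the beta subunit gene Ssr2 and -1.30 (SE 0.0547, edgeR adjusted p = 8.51e-11) for Ssr3, against 0.98 (SE 0.0538, edgeR adjusted p = 1.17e-09) for Ssr4. Thus 3 of the 4 TRAP genes fell and 1 rose.

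The channel genes moved less than the TRAP genes with MI-503 in WT. Sec61a1, which encodes the pore-forming alpha subunit, had 173 and 165 CPM in WT DMSO, 168 and 163 CPM in WT MI-503, 206 and 212 CPM in labelled dKO DMSO and 179 and 169 CPM in labelled dKO MI-503. The groups given MI-503 overlapped WT DMSO, and labelled dKO DMSO was the highest group. Its change with MI-503 in WT was -0.033 (SE 0.0479) and did not pass, and it turned to 0.14 and passed when library size alone was used for scaling, which moved the median of all genes from 0.03 to 0.21. The small subunit genes fell, with log2 fold changes of -0.56 for Sec61b and -0.45 for Sec61g. Tram1, whose protein contacts nascent chains beside the channel, changed by -0.25, and lost its call with library size alone (-0.076).

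All 5 signal peptidase genes fell with MI-503 in WT. Spcs2 (chr7:99837569-99870340), a non-catalytic subunit, had 330.5 and 343 CPM in WT DMSO, 85.2 and 91.6 CPM in WT MI-503, 110.1 and 103 CPM in labelled dKO DMSO and 62.5 and 66.8 CPM in labelled dKO MI-503. Its WT DMSO libraries were the highest, and no 2 groups overlapped. Spcs3 (chr8:54520433-54529998), another non-catalytic subunit, had 261 and 272 CPM in WT DMSO, 122 and 125 CPM in WT MI-503, 138 and 129.8 CPM in labelled dKO DMSO and 144 and 151 CPM in labelled dKO MI-503. Spcs3 too was highest in WT DMSO, without overlap. Sec11c, a catalytic subunit of the alternative form of the enzyme, had 24.4 and 26.7 CPM in WT DMSO, 10.7 and 11.2 CPM in WT MI-503, 14.3 and 14.8 CPM in labelled dKO DMSO and 14.9 and 16.4 CPM in labelled dKO MI-503, so its level was lowest in WT MI-503. The log2 changes with MI-503 in WT were -1.93 (SE 0.0558, edgeR adjusted p = 2.8e-12) for Spcs2, -1.11 (SE 0.0494, edgeR adjusted p = 1.47e-10) for Spcs3 and -1.23 (SE 0.0801, edgeR adjusted p = 7.2e-09) for Sec11c. Sec11a, the other catalytic subunit gene, changed by -0.54 and Spcs1 by -0.33. Spcs1 and Spcs2 overlap another protein-coding gene each (Glt8d1 and Xrra1), and without a stated strand setting reads of the pairs may not have been separable.

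In COPII, 7 of 10 genes fell with MI-503 in WT, Sec24c rose, and Sec24b and Sec31a did not pass. Sec23a (chr12:58958384-59012017), which encodes an inner-coat subunit that activates the SAR1 GTPase, had 165 and 169 CPM in WT DMSO, 64.8 and 68.4 CPM in WT MI-503, 84.7 and 82 CPM in labelled dKO DMSO and 71.5 and 72.4 CPM in labelled dKO MI-503. Sec24d (chr3:123264801-123365641), one of the cargo-binding SEC24 forms, had 102 and 94.2 CPM in WT DMSO, 43.9 and 43.3 CPM in WT MI-503, 42.5 and 42.3 CPM in labelled dKO DMSO and 57 and 53.2 CPM in labelled dKO MI-503. For both genes the WT DMSO libraries were the highest and did not overlap any other group. Their log2 changes with MI-503 in WT were -1.33 (SE 0.0487, edgeR adjusted p = 2.2e-11) and -1.17 (SE 0.0579, edgeR adjusted p = 4.13e-10). The other inner-coat and GTPase genes Sec23b, Sar1a, Sec24a and Sar1b changed by -0.73, -0.63, -0.36 and -0.18. The cargo-binding form Sec24c changed by 0.24. The outer-coat genes changed by -0.16 for Sec13 and 0.085 for Sec31a. Sec13 lost its call without WT DMSO replicate 1 (-0.068), WT MI-503 replicate 1 (-0.16) or WT MI-503 replicate 2 (-0.16), and changed by 0.018 with library size alone. Its call also ended with RLE factors (-0.13), DESeq2 (-0.13), no filter (-0.084) and the stricter filter (-0.081). Sar1b lost its call without replicate 2 of WT DMSO (-0.18) or replicate 1 of WT MI-503 (-0.14), and with no filter (-0.11), the stricter filter (-0.11) or library size alone (-0.011). Sec24b was called higher with no filter (0.15), the stricter filter (0.15) and library size alone (0.25), and Sec31a with these (0.16, 0.16 and 0.26) and with RLE factors (0.11).

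Of the 6 COPI genes 5 fell with MI-503 in WT. Copb1 (chr7:114215559-114254680), the beta coat subunit, had 389 and 411 CPM in WT DMSO, 236 and 249 CPM in WT MI-503, 176 and 163 CPM in labelled dKO DMSO and 167 and 175 CPM in labelled dKO MI-503. Its WT DMSO libraries were the highest, WT MI-503 came next, and labelled dKO libraries lay lowest with or without MI-503. It changed with MI-503 in WT by -0.72 (SE 0.0533, edgeR adjusted p = 2.78e-08). Copb2 changed by -0.57, Copa, the alpha subunit, by -0.40 and Cope, the epsilon subunit, by -0.25. Arf4, one of the ARF GTPases that recruit the coat, changed by -0.50. The gamma subunit gene Copg1 changed by -0.10, which did not pass, but passed without WT DMSO replicate 2 at -0.14 and with the compared groups alone at -0.11. Copa overlaps the protein-coding gene Ncstn, so its reads may be uncertain. Cope lost its call without replicate 1 of WT DMSO (-0.19) or replicate 2 of WT MI-503 (-0.19), and with library size alone (-0.080).

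The KDEL receptors, which retrieve soluble ER chaperones, split. Kdelr1 (chr7:45872840-45883726) had 128 and 131 CPM in WT DMSO, 201 and 204 CPM in WT MI-503, 103 and 96.2 CPM in labelled dKO DMSO and 135 and 137 CPM in labelled dKO MI-503. Kdelr2 (chr5:143403820-143421904) had 181 and 181 CPM in WT DMSO, 80.1 and 75.6 CPM in WT MI-503, 77.2 and 77.4 CPM in labelled dKO DMSO and 83.7 and 81.4 CPM in labelled dKO MI-503. Kdelr3 (chr15:79516408-79527739) had 27.9 and 24.3 CPM in WT DMSO, 9.7 and 8.09 CPM in WT MI-503, 20.4 and 19.1 CPM in labelled dKO DMSO and 21.7 and 21.4 CPM in labelled dKO MI-503. Kdelr1 was highest in WT MI-503, while Kdelr2 was highest in WT DMSO and Kdelr3 was lowest in WT MI-503. With MI-503 in WT the log2 changes were 0.64 (SE 0.0469, edgeR adjusted p = 2.3e-08) for Kdelr1, -1.22 (SE 0.0475, edgeR adjusted p = 4e-11) for Kdelr2 and -1.55 (SE 0.0953, edgeR adjusted p = 3.85e-09) for Kdelr3. Kdelr3 overlaps Ddx17, a gene of an RNA helicase, so its reads may be uncertain.

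Mcfd2 (chr17:87254443-87265947), which pairs with LMAN1 in a receptor that exports coagulation factors and other glycoproteins, had 229.6 and 231 CPM in WT DMSO, 60.7 and 62.7 CPM in WT MI-503, 77.7 and 75.6 CPM in labelled dKO DMSO and 45.8 and 46.9 CPM in labelled dKO MI-503. WT DMSO was the highest, followed by labelled dKO DMSO, WT MI-503 and labelled dKO MI-503, and no 2 groups overlapped. Lman1, the lectin partner, changed with MI-503 in WT by -0.96, and Mcfd2 by -1.90 (SE 0.0469, edgeR adjusted p = 6.6e-13). Both cargo receptor genes fell.

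**Figure D2:**
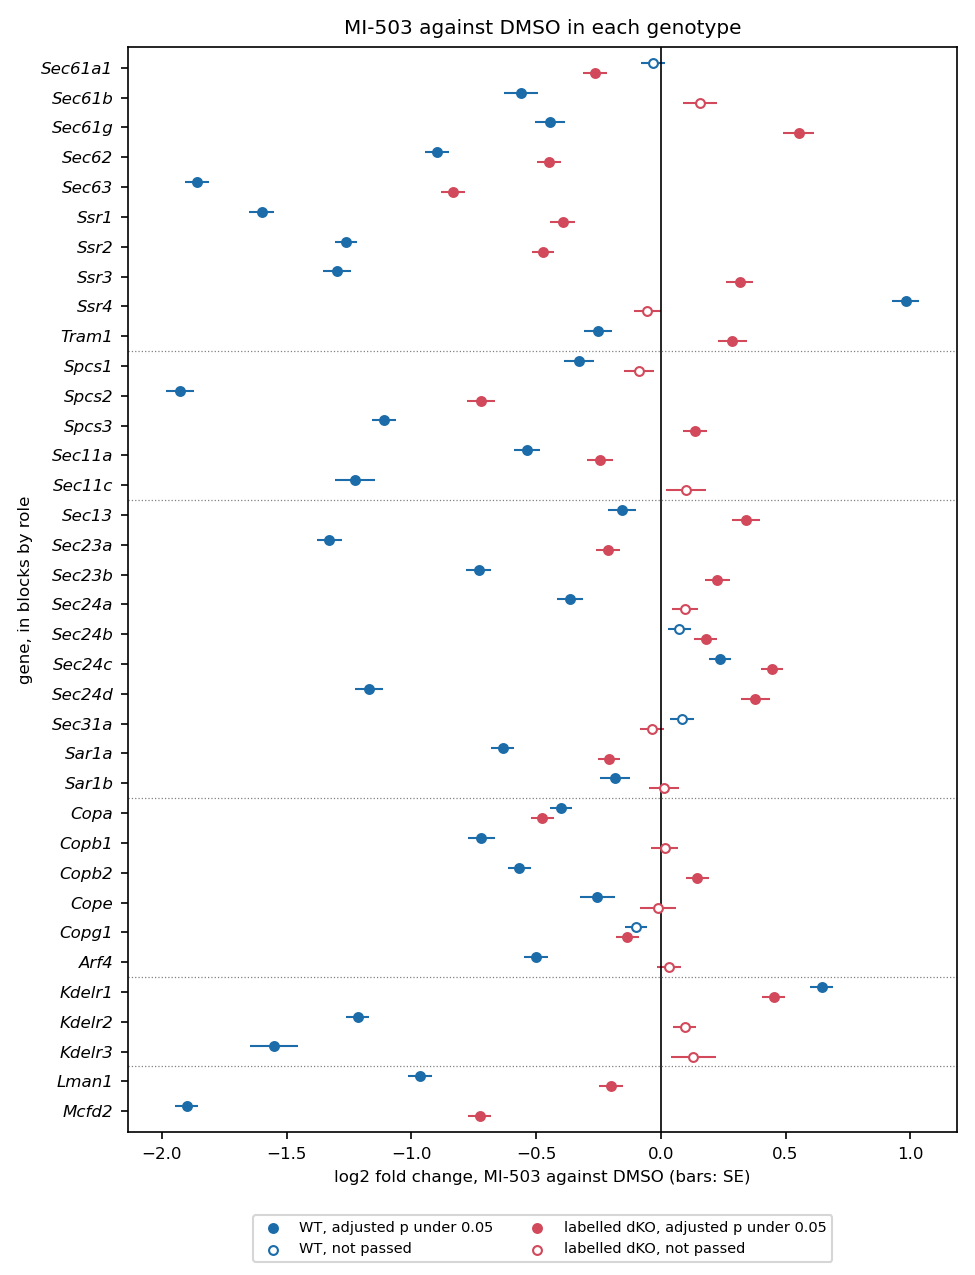
Log2 fold change of MI-503 against DMSO for each of the 36 genes, in WT and in labelled dKO, with bars of 1 standard error. In WT 29 of the 36 values are called lower, and in labelled dKO most lie nearer 0.

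Without MI-503, most of the set was lower in libraries labelled dKO than in WT. In DMSO 28 of the 36 genes were lower, 2 were higher (Sec61a1 and Ssr4) and 6 did not pass. Over all genes 35.8% were lower and 29.6% higher. The median log2 difference of the set was -0.63 beside -0.05 over all genes, and 10 of the 36 were at least 2-fold lower. Scaling by library size alone gave 25 lower and 7 higher. This comparison and that of MI-503 in WT use the same WT DMSO libraries, so their values are set side by side and their likeness is not given as a result. Copa and Cope, which fell with MI-503 in WT, had -0.064 and -0.092 here and did not pass.

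By role, 8 of 10 translocon genes, all 5 signal peptidase genes, 7 of 10 COPII genes, 3 of 6 COPI genes, all 3 KDEL receptor genes and both cargo receptor genes were lower in labelled dKO. Ssr3 was -1.67 (SE 0.0553, edgeR adjusted p = 1.13e-11) on the log2 scale, Spcs2 -1.66 (SE 0.0552, edgeR adjusted p = 1.19e-11) and Mcfd2 -1.59 (SE 0.0462, edgeR adjusted p = 3.46e-12). Other translocon genes were -1.18 for Sec61g, -1.13 for Sec63, -0.80 for Tram1, -0.72 for Ssr2 and -0.66 for Sec61b, and Ssr1 was 2-fold lower. Other signal peptidase genes were -0.99 for Spcs3, -0.81 for Sec11c and -0.68 for Sec11a. In the coats, Sec23b was -0.84, Sar1a -0.51, Copb2 -0.96 and Arf4 -0.61, and Lman1 was -0.47. Copb1 was -1.24 (SE 0.0539, edgeR adjusted p = 1.73e-10) and Sec24d -1.21 (SE 0.0578, edgeR adjusted p = 4.63e-10). Kdelr2 was -1.23 (SE 0.0474), Kdelr1 -0.38 (SE 0.0472) and Kdelr3 -0.41 (SE 0.0894), so Kdelr1 was lower in labelled dKO although it rose with MI-503 in WT. Ssr4 was 0.67 (SE 0.0537, edgeR adjusted p = 9.43e-08) and Sec61a1 0.31 (SE 0.0478, edgeR adjusted p = 6.67e-05). Sec62 lost its call without WT DMSO replicate 2 (-0.12) or labelled dKO DMSO replicate 2 (-0.12), and Spcs1 without labelled dKO DMSO replicate 2 (-0.13). The call of Sec62 also ended with RLE factors (-0.12), DESeq2 (-0.12), no filter (-0.062), the stricter filter (-0.070) and the compared groups alone (-0.081), and that of Spcs1 with the latter 3 settings (-0.12, -0.13 and -0.14). With library size alone, which moved the median of all genes from -0.05 to 0.18, Sec62 and Spcs1 changed sign to 0.073 and 0.016, and Sec24b, Sec24c, Sec31a, Copa and Copg1 were called higher at 0.22, 0.17, 0.25, 0.16 and 0.20, where the TMM values did not pass. Kdelr3 lost its call there (-0.18).

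**Figure D3:**
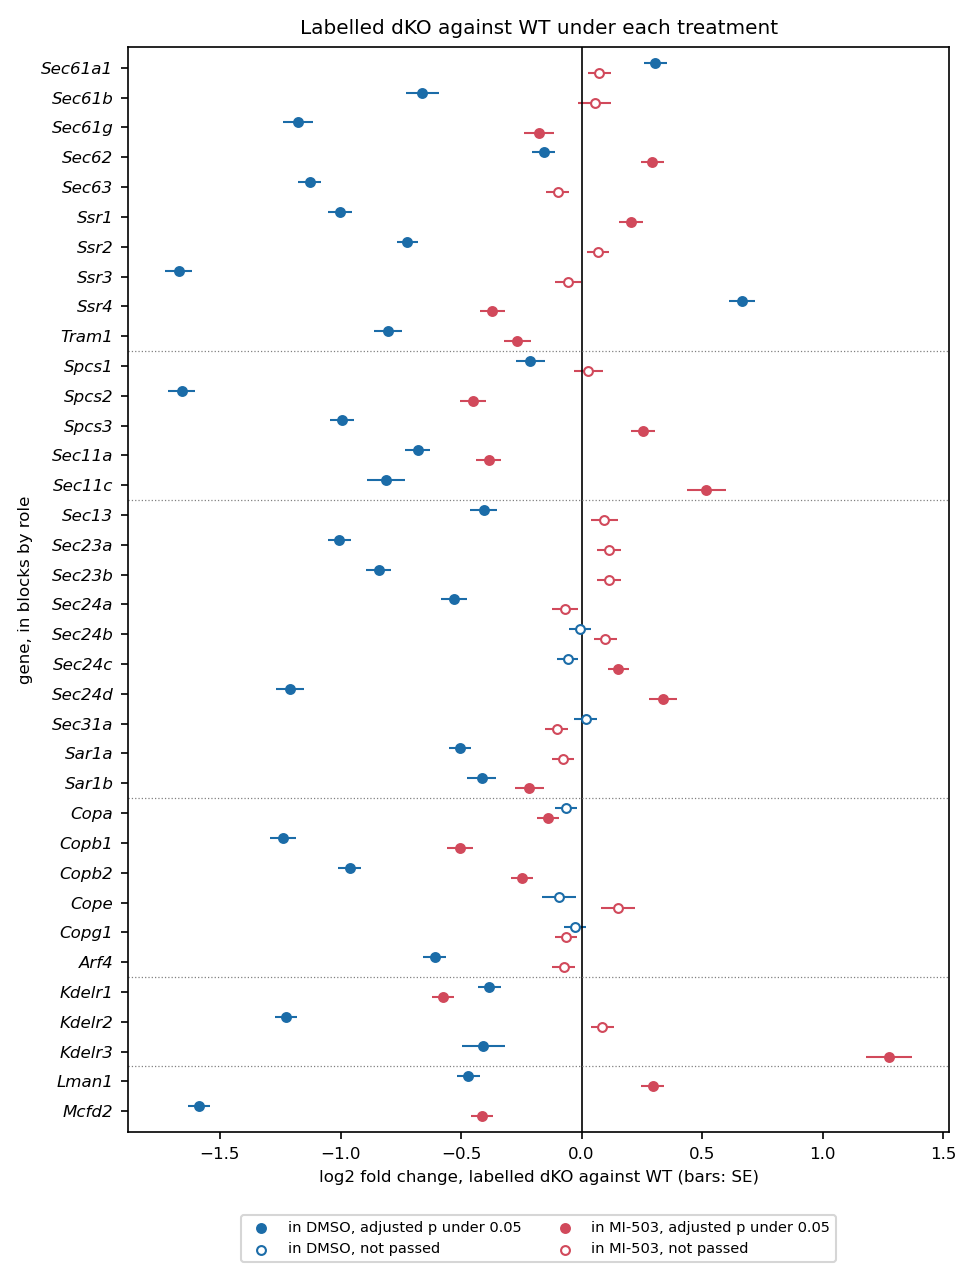
Log2 difference of labelled dKO against WT for each of the 36 genes, in DMSO and in MI-503, with bars of 1 standard error. In DMSO 28 of the 36 values are called lower, and under MI-503 the values lie on both sides of 0.

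In labelled dKO, the set showed no common direction with MI-503. In this comparison 13 of the 36 genes fell and 11 rose, 12 did not pass, and none changed by 2-fold. Over all genes 29.1% rose and 26.5% fell, so the share of the set that rose lay near the background and the share that fell was above it by a few genes. The median of the set was 0.01 beside 0.03. Of the 29 genes that fell in WT, 11 also fell in labelled dKO (Sec62, Sec63, Ssr1, Ssr2, Spcs2, Sec11a, Sec23a, Sar1a, Copa, Lman1 and Mcfd2) and 8 rose (Sec61g, Ssr3, Tram1, Spcs3, Sec13, Sec23b, Sec24d and Copb2), with 10 not passing. Sec63 had -0.83 (SE 0.0473), Mcfd2 -0.73 (SE 0.047) and Spcs2 -0.72 (SE 0.0555) on the log2 scale, and Sec61g had 0.55 (SE 0.0618). The calls of Spcs3, Copb2 and Copg1 each ended when some single library was left out: Spcs3 without WT MI-503 replicate 2 (0.13), labelled dKO DMSO replicate 2 (0.091) or labelled dKO MI-503 replicate 2 (0.10), Copb2 without labelled dKO DMSO replicate 2 (0.10), labelled dKO MI-503 replicate 1 (0.14) or replicate 2 (0.15), and Copg1 without labelled dKO DMSO replicate 2 (-0.11) or labelled dKO MI-503 replicate 2 (-0.12). Calls appeared for Spcs1 without labelled dKO DMSO replicate 2 (-0.17) and for Sec61b without labelled dKO MI-503 replicate 2 (0.24) or with library size alone (0.17). Spcs3 and Copb2 also lost their calls with no filter (0.11 and 0.12) and with the compared groups alone (0.11 and 0.12).

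The difference of the MI-503 effects between genotypes was itself tested as an interaction. It was positive, that is the effect in labelled dKO was less negative or more positive than in WT, and passed for 27 of the 36 genes, and it was negative for 3 (Ssr4, Sec61a1 and Kdelr1). Over all genes 24.8% passed as positive and 22.0% as negative, and the median of the set was 0.63 beside 0.02. Scaling by library size alone gave 24 positive and 6 negative. At least 1 log2 unit separated the effects for 11 genes in the positive direction and for Ssr4 in the negative one. Kdelr3 had 1.68 (SE 0.131, edgeR adjusted p = 2.85e-07), Ssr3 1.61 (SE 0.0768, edgeR adjusted p = 3.89e-09) and Sec24d 1.55 (SE 0.0818, edgeR adjusted p = 9.31e-09). The interaction uses the libraries of both MI-503 comparisons, so it is not independent of them. The count of negative genes was 1 without WT DMSO replicate 2, without WT MI-503 replicate 1 and without labelled dKO MI-503 replicate 2. Sec61a1 lost its call in those same leave-outs (-0.19, -0.21 and -0.19), and Kdelr1 in all leave-outs but that of labelled dKO DMSO replicate 2, with values from -0.14 to -0.21. Sec24c lost its call without WT MI-503 replicate 1 (0.19) or labelled dKO MI-503 replicate 1 (0.20). Spcs1 lost it without WT DMSO replicate 2, WT MI-503 replicate 1 or 2, or labelled dKO replicate 2 of either treatment (0.16 to 0.25). Cope passed without WT DMSO replicate 2, WT MI-503 replicate 1, or labelled dKO replicate 2 of either treatment (0.29 to 0.32), and Sar1b without labelled dKO DMSO replicate 1 (0.28). Spcs1 also lost its call with RLE factors, DESeq2, library size alone and both filter settings (0.081 to 0.21), Sec24c with DESeq2, library size alone and both filter settings (0.049 to 0.18), and Sec11a with library size alone (0.13) and no filter (0.19). Kdelr1 lost it under the replicate block (-0.19). Sec31a and Copa passed as negative with library size alone (-0.28 and -0.23), no filter (-0.22 and -0.17) and the stricter filter (-0.20 and -0.15), and Copg1 with library size alone (-0.19).

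Under MI-503 the set showed no common direction between genotypes. Of the 36 genes 8 were higher and 11 lower in labelled dKO, and 17 did not pass, where over all genes 26.6% were higher and 28.5% lower, so both shares lay near the background. The median was -0.01 beside 0.01, and scaling by library size alone gave 16 higher and 9 lower. Kdelr3 was the only gene past 2-fold, at 1.27 (SE 0.0956, edgeR adjusted p = 7.14e-08). Kdelr1 was -0.57 (SE 0.0468), Copb1 -0.51 (SE 0.0535) and Sec11c 0.52 (SE 0.0814). Without WT MI-503 replicate 2 or labelled dKO MI-503 replicate 1, the calls ended for Sec61g (-0.13 and -0.11), Sar1b (-0.17 and -0.18) and Copa (-0.11 and -0.13), and that of Copa also without labelled dKO MI-503 replicate 2 (-0.15). Sec24c lost its call without replicate 1 of WT MI-503 (0.14) or of labelled dKO MI-503 (0.14), while Cope passed without the former (0.23) and Sec23b without the latter (0.17). With library size alone Sec61g (-0.11) and Copa (-0.071) lost their calls and 8 genes gained one as higher (Sec61a1, Ssr2, Sec13, Sec23a, Sec23b, Sec24b, Cope and Kdelr2, at 0.14 to 0.22). Sec23a, Sec23b and Sec24b also passed with the stricter filter (0.12, 0.12 and 0.11), and Cope with the compared groups alone (0.16).

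Ratios of counts between paralogs within a library do not depend on scaling, and they show unequal change without saying that either gene was constant. Kdelr2 over Kdelr1 was 1.41 and 1.38 in WT DMSO, 0.398 and 0.37 in WT MI-503, 0.751 and 0.805 in labelled dKO DMSO, and 0.62 and 0.594 in labelled dKO MI-503. Kdelr3 over Kdelr1 was 0.218 and 0.185, 0.0482 and 0.0396, 0.198 and 0.198, and 0.161 and 0.156 in the same order. Both ratios were lowest in WT MI-503, but only the first was also lower in labelled dKO DMSO than in each WT DMSO library. Sec24d over Sec24c was 0.81 and 0.75 in WT DMSO, 0.299 and 0.289 in WT MI-503, 0.346 and 0.356 in labelled dKO DMSO, and 0.344 and 0.326 in labelled dKO MI-503. The WT DMSO libraries stood above all others. Sec23a over Sec23b was 1.23 and 1.28, 0.817 and 0.84, 1.13 and 1.11, and 0.854 and 0.802 in that order, and was lower in both MI-503 groups than in both DMSO groups. Sar1a over Sar1b was 2.36 and 2.31, 1.75 and 1.68, 2.13 and 2.27, and 1.89 and 1.87, again lower in both MI-503 groups. Sec24a over Sec24b ran from 1.16 to 1.21 in WT DMSO and from 0.767 to 0.887 elsewhere. For the catalytic signal peptidase pair, Sec11c over Sec11a was lowest in WT MI-503 (0.14 and 0.147) and highest in labelled dKO MI-503 (0.26 and 0.277).

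**Figure D4:**
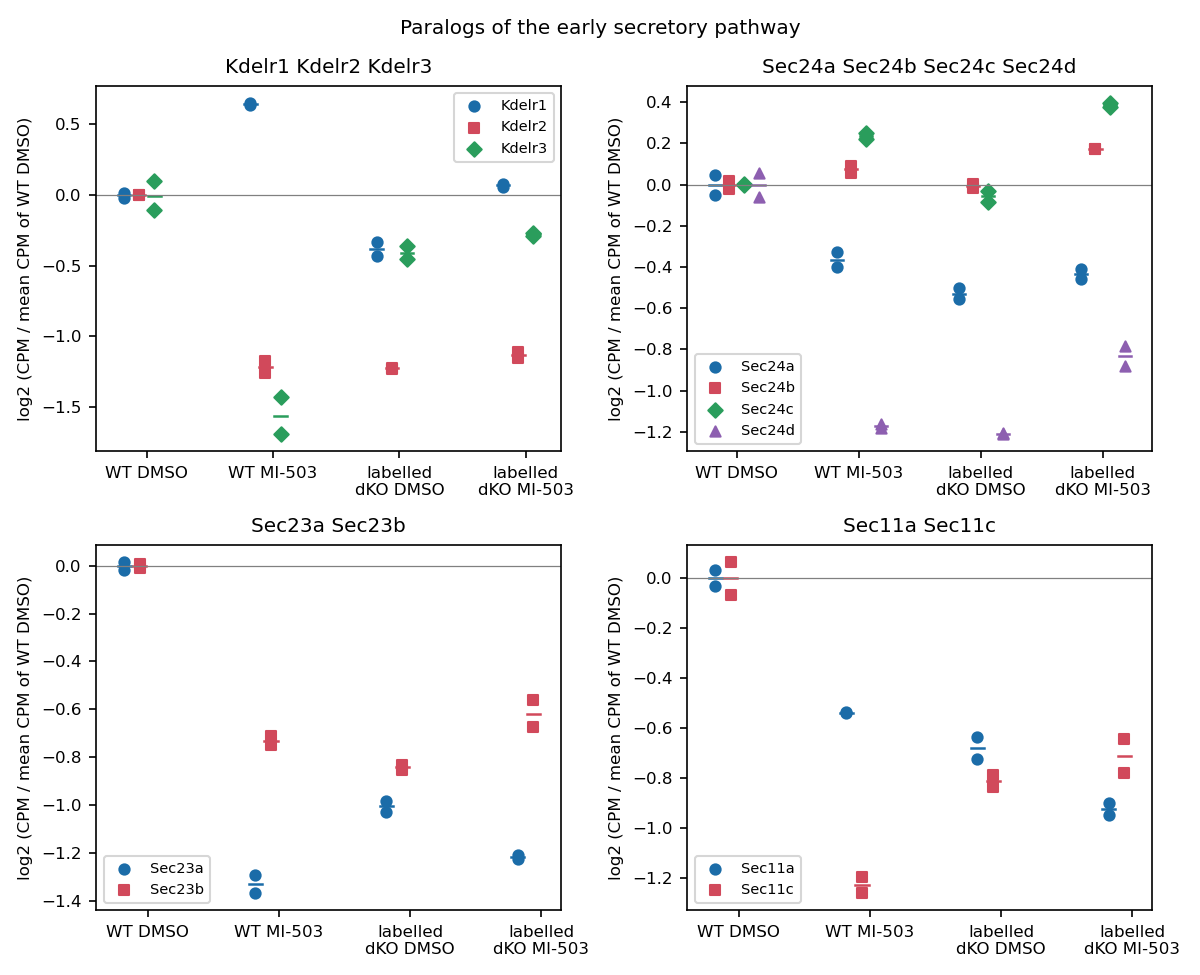
Level of the KDEL receptor, Sec24, Sec23 and Sec11 genes in each library, as log2 of CPM relative to the mean of the 2 WT DMSO libraries. Kdelr2 is lower in every library outside WT DMSO, and Kdelr1 lies on both sides of the WT DMSO level.

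The other genes of the pathway, from lists of the same machinery, gave counts that differed between lists. Over all genes tested, 33.7% fell and 35.2% rose with MI-503 in WT. In that comparison, of the 9 tested genes of the signal recognition particle and its receptor 8 fell and 1 did not pass, and of 12 oligosaccharyltransferase genes, whose products attach N-glycans at the translocon, 10 fell and 2 rose. Of 14 genes for p24 and ERGIC cargo receptors 9 fell and 5 rose, and of 14 further COPII genes 10 fell, 3 rose and 1 did not pass. Further translocation genes were mixed, with 7 falling, 6 rising and 1 not passing, and 17 further COPI genes gave 5 falling, 7 rising and 5 not passing. Log2 changes of the 2 largest of each list were -0.86 for Srp68 and -0.78 for Srprb, -1.93 for Magt1 and -1.79 for Ostc, and 1.26 for Emc10 against -0.82 for Emc6. The p24 genes Tmed5 and Tmed2 had -2.31 and -1.49, the tether gene Uso1 -1.44 and Scfd1 -1.39, and in COPI Zw10 had -1.29 and Arfgap3 0.95. Between genotypes in DMSO, where 35.8% of all genes were lower and 29.6% higher, 5 of 9 signal recognition genes, 9 of 12 oligosaccharyltransferase genes and 10 of 14 p24 and ERGIC genes were lower in labelled dKO, with 1, 2 and 4 higher. Of the further COPII genes 8 of 14 were lower and 3 higher, and of the further COPI genes 9 of 17 were lower and 5 higher. Of the further translocation genes 4 of 14 were lower, a share near that over all genes, and 7 higher.

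**Figure D5:**
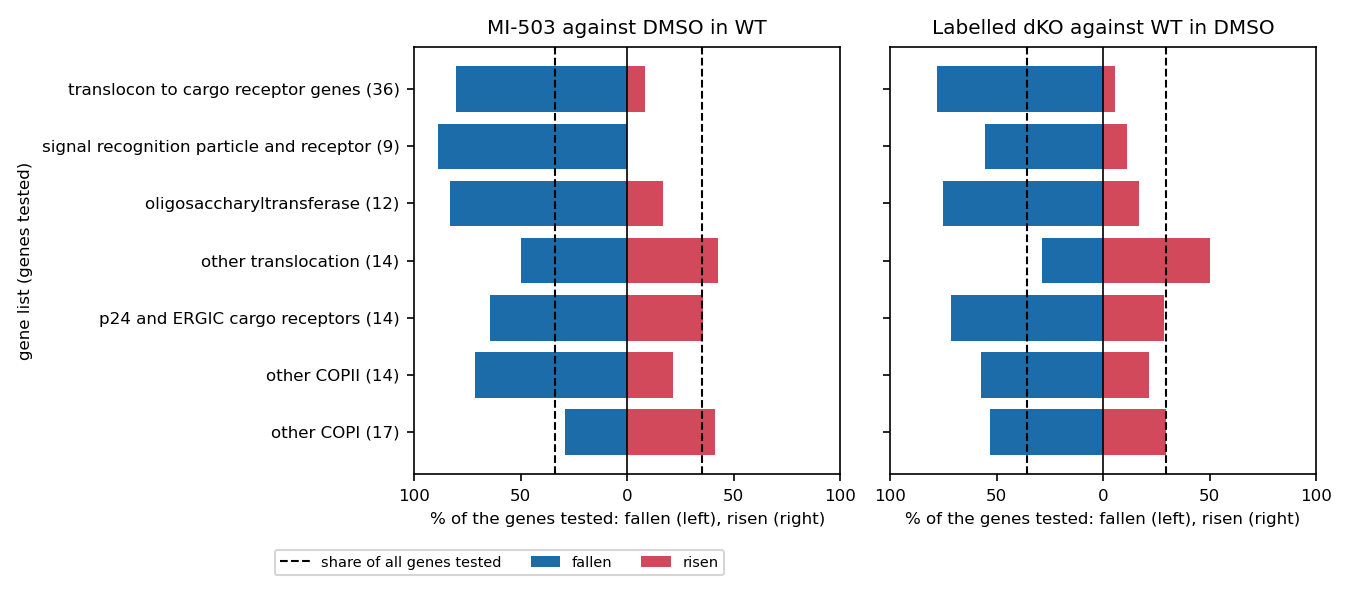
Share of the tested genes called lower (left) and higher (right), in the whole set of 36 and in 6 further pathway lists, for MI-503 in WT and for labelled dKO against WT in DMSO; dashed lines give the shares over all genes tested. With MI-503 in WT, 8 of 9 signal recognition particle genes and 29 of the 36 are on the lower side, against 5 of 17 further COPI genes.

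Most of the unfolded protein response and CREB3 family regulators were also lower with MI-503 in WT and in labelled dKO in DMSO. Hspa5 was lower in both comparisons too. With MI-503 in labelled dKO these genes parted from the set, and their part in the results was not tested. The chaperone gene Hspa5, which encodes BiP, had 14100 and 15240 CPM in WT DMSO, 342 and 342 CPM in WT MI-503, 1511 and 1457 CPM in labelled dKO DMSO and 410.3 and 408 CPM in labelled dKO MI-503. Of 12 tested unfolded protein response and CREB3 family genes, 9 fell, 2 rose and 1 did not pass with MI-503 in WT. Over all genes 33.7% fell and 35.2% rose. Between genotypes in DMSO 7 were lower in labelled dKO, 2 higher and 3 did not pass, beside 35.8% lower and 29.6% higher over all genes. Creb3l1, Creb3l3 and Creb3l4 of that list were at most 0.384, 3.63 and 1.04 CPM in any library. With MI-503 in labelled dKO 8 of the 12 fell and 3 rose, beside 26.5% and 29.1% of all genes. The median log2 change of the 12 was -0.71, with 5 at least 2-fold lower and 2 at least 2-fold higher. The 2 higher were the low Creb3l1 and Creb3l3, and the 5 lower included the low Creb3l4. The set had a median of 0.01 and no gene at 2-fold. Hspa5 changed by -5.42 (SE 0.0622) with MI-503 in WT and -1.86 (SE 0.0533) in labelled dKO. Ddit3, which encodes CHOP, had 637 and 606 CPM in WT DMSO, 25.6 and 22.4 CPM in WT MI-503, 140.5 and 151 CPM in labelled dKO DMSO and 24.1 and 21.6 CPM in labelled dKO MI-503. Atf6, which encodes a membrane-bound activator of chaperone genes, had 486 and 495 CPM in WT DMSO, 115 and 117 CPM in WT MI-503, 204 and 194 CPM in labelled dKO DMSO and 70.6 and 72.9 CPM in labelled dKO MI-503. All 3 genes were highest in both WT DMSO libraries. Xbp1, whose spliced mRNA encodes another activator, changed by -1.88 (SE 0.0497) in WT with MI-503 and -1.05 (SE 0.0481) between genotypes in DMSO.

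The 5 genes with the UPRE core can be set against the 24 with an entry and no match, as a description. With MI-503 in WT all 5 fell, with a median of -1.17, and 18 of the 24 fell, with a median of -0.42. Over all genes tested 33.7% fell in that comparison. In labelled dKO with MI-503, 2 of the 5 rose and 1 fell, with a median of 0.13. Of the 24, 7 rose and 9 fell, with a median of -0.023, beside 29.1% and 26.5% of all genes. These counts are small and no test was made.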

How the data were processed

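RNA-seq counts of 8 libraries in 4 groups of 2 were analysed, grouped by the genotype and treatment in their labels, and the 32 other samples of the series were not analysed here. The authors deposited whole-number counts for each Ensembl gene, which they had not normalized. PolyA libraries were used per the labels' protocols. For the whole series, the submitters' processing notes list the builds mm10 and GRCm38 and the tools STAR, Bowtie2, SICER, deepTools and MACS3. The program that counted reads, its use of strand and the gene annotation are not given in the sources used, which leaves overlapping genes and close paralogs uncertain. Of 53465 identifiers, 53274 had a symbol, and 1 row with no identifier was left out.

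The fit used edgeR 4.0.16 in R 4.3.3. Filtering by group, with at least 10 counts and a total of at least 15, kept 16921 genes. TMM factors ran from 0.892 to 1.06. Quasi-likelihood models took all 8 libraries and a mean for each group, with 4 residual degrees of freedom and a biological coefficient of variation of 5.14%. F tests (two-sided) were adjusted by Benjamini-Hochberg over all genes tested in each of 5 contrasts, with a threshold of 0.05. Fold changes include a prior count of 0.125; the standard error is the size of the log2 change divided by the root of F. The spread is pooled over all genes, while exact permutation, two-sided, of 2 libraries against 2 gives no p below 0.33. A count of 0 allows up to 3 counts, or 0.0438 to 0.0516 CPM before TMM scaling, for counting error only.

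The members and lists were chosen with earlier results of these data known. All 36 genes were described by role. Values in every library were given for the gene of each role with the largest change in MI-503 in WT or between genotypes in DMSO, and for genes whose interaction passed with at least 1 log2 unit; Sec61a1 and Kdelr1 were added after their values were seen. Of the further pathway genes, the 2 of each list with the largest change with MI-503 in WT were named, and Atf6, Ddit3, Xbp1 and Hspa5 for the unfolded protein response. Promoter sequences are those of RefSeq on GRCm38.p6. The fitting script was tested on simulated data. Each result was recomputed with DESeq2 1.42.0, with RLE factors or library size alone, with no or a stricter filter, with the compared groups alone, with replicate number as a block, and without each library.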

Additional observations from a re-analysis of the deposited data

Results flagged for a closer look

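MI-503 effects that differed between genotypes, by the edgeR test of the interaction, were found for 30 of the 36 genes. Over all genes tested, 24.8% passed as positive and 22.0% as negative. Of the 30 genes, 25 kept the call in every alternative fit, and Sec61a1, Spcs1, Sec11a, Sec24c and Kdelr1 did not. Each value is the log2 effect in labelled dKO minus that in WT. In the translocon it was 1.61 for Ssr3, 1.21 for Ssr1, 1.03 for Sec63, 0.998 for Sec61g, 0.79 for Ssr2, 0.716 for Sec61b, 0.537 for Tram1 and 0.45 for Sec62, and -1.04 for Ssr4 and -0.232 for Sec61a1. In the signal peptidase it was 1.33 for Sec11c, 1.25 for Spcs3, 1.21 for Spcs2, 0.293 for Sec11a and 0.24 for Spcs1. In COPII it was 1.55 for Sec24d, 1.12 for Sec23a, 0.956 for Sec23b, 0.499 for Sec13, 0.462 for Sec24a, 0.426 for Sar1a and 0.208 for Sec24c. In COPI it was 0.735 for Copb1, 0.714 for Copb2 and 0.536 for Arf4. Among the receptors it was 1.68 for Kdelr3, 1.31 for Kdelr2, 1.17 for Mcfd2 and 0.765 for Lman1, and -0.192 for Kdelr1.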

How the results depend on the processing

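Over 15 alternatives, 2537 of 2664 gene values kept their call or stayed without one. Of the rest, 80 lost the call, 39 gained one and 8 reversed, all 8 with library size only. Reversed means a change of sign with a call in either fit. A change of sign without any call was counted as kept. With the library size setting left out, none of 2484 reversed in this sense. With library size only, labelled dKO against WT in DMSO reversed for Sec62 (0.073), Spcs1 (0.016), Sec24b (0.22), Sec24c (0.17), Copa (0.16) and Copg1 (0.20), and MI-503 in WT reversed for Sec61a1 (0.14) and Sec13 (0.018). It also changed the number risen to 7 in the first comparison, 6 in the second and 16 between genotypes under MI-503, and the number with a negative interaction to 6. With no filter or the stricter filter, 5 genes rose with MI-503 in WT and 5 had a negative interaction. The cause was not tested.

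With each library left out in turn, 2 genes were higher and 26 to 28 lower in labelled dKO in DMSO, and 3 rose and 27 to 29 fell with MI-503 in WT. In labelled dKO, 9 to 11 rose and 12 to 13 fell, with a median of -0.018 to 0.066. The interaction was positive for 26 to 28 and negative for 1 to 3, and under MI-503 8 were higher and 8 to 11 lower. Same-numbered libraries did not deviate together (correlations -0.0886 to 0.0585). These values cannot show whether equal numbers share a culture or batch, which the labels do not state. The replicate block left 28 lower and 2 higher in DMSO and 29 falling and 3 rising with MI-503 in WT, and ended only the interaction of Kdelr1 (-0.19). Having 2 libraries a group limits the precision of every value.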
